A study of Homo sapiens with 4 samples.

Results

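The genes of polyamine metabolism were followed here as 10 named members of the 19801 genes in the tables. They were named for their place in the pathway by a rule that uses no measured value, but with earlier results of these data known. The members were the synthesis genes ODC1, AMD1, SRM and SMS, the antizyme system genes OAZ1, OAZ2 and AZIN1, and the catabolic genes SAT1, SMOX and PAOX. Each was found by its Entrez Gene identifier, and all 10 had an RPKM (reads per transcript length, scaled for how many reads a library has) of at least 1 in all 4 libraries. The filter on low values, which kept the 14626 genes that reached an RPKM of 1 in any library, therefore left out no member.

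The study used RNA-seq of LNCaP cells, an androgen-responsive prostate cancer line, to ask whether AIL (ailanthone, a natural small molecule) acts on the gene expression brought about by the AR1-651 plasmid. Cells received an empty vector or the AR1-651 plasmid for 24 h and then no compound or AIL for the next 12 h. This gave 4 conditions with 1 library each, namely the empty vector alone or with AIL and AR1-651 alone or with AIL. All 4 came from 1 cell line in medium with serum and were made after transient transfection, so each library mixes cells that took up plasmid with cells that did not.

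Polyamines (putrescine, spermidine and spermine) are small positively charged molecules that bind nucleic acids and are needed for growth. The prostate makes and secretes them in unusual amounts, and ODC1, the first enzyme of the pathway, is a well-known androgen-responsive gene there. Cells hold the pool in check mainly by adjusting ODC1 protein through antizyme and by acetylating, oxidising or exporting the excess, so the mRNA levels given here are only a part of that control.

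Values are RPKM levels unless a change is named. A change is the difference of log2(RPKM + 1) between 2 libraries, which makes changes at low RPKM look smaller, and a gene was said to have risen or fallen only when that change was at least 1, or 2-fold on this scale. With 1 library per condition there was no replicate error and no test between conditions could be made, so each value describes a library. Fewer cells expressing a gene and less RNA per cell cannot be told apart in such bulk samples.

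The labels were checked first. The androgen-responsive genes KLK3 (286.61 RPKM in empty vector, 302.56 in empty vector + AIL, 1442.16 in AR1-651 and 581.52 in AR1-651 + AIL) and TMPRSS2 (36.71, 16.60, 275.64 and 65.07 RPKM in the same order) were highest in the library labelled AR1-651. Uptake of the plasmid is not reported here, and the libraries are named by their labels. All 8 luminal prostate markers were present at 11.55 RPKM or more in every library, whereas the basal marker KRT14 did not exceed 0.21 RPKM. Markers of other cell types were at low levels, with sums of 2.36 to 5.52 RPKM for 3 fibroblast genes. The endothelial gene PECAM1 and the leukocyte gene PTPRC had 0.94 RPKM or less. The other listed markers CDH5 (endothelial), CD3E (leukocyte), KRT5 and TP63 (basal) had no values. The check of these types thus rests on PECAM1, PTPRC and KRT14 alone. The 2 neuroendocrine markers summed to 0.88, 4.98, 2.59 and 4.49 RPKM, nearly all of it SYP, and were thus higher with AIL in either vector, and their part in the results was not tested. The libraries also differed as a whole. Ribosomal protein genes took 33.2% of the summed RPKM in the library labelled AR1-651 against 22.4% to 25.6% in the other 3, and the median change of all genes was -0.30 between AR1-651 and empty vector. Across 14005 genes, this change had a Spearman rho of -0.40 with transcript length, and that between the 2 libraries with AIL had a rho of -0.60 with GC content, given as descriptions of libraries that share their genes.

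Promoter sequence is shown for ODC1, which moved most of all members, and for SRM and AMD1. These 2 synthesis genes were not higher with AR1-651, where their changes were -0.49 and -0.34. The remaining synthesis gene, SMS, had a change of 0.78 there, and its sequence is not shown. RefSeq (GRCh38.p14) gave windows from 250 bases before to 50 bases after a start for 7 of the 10 members, in 10 windows, and AZIN1, SMOX and PAOX were not matched. The motifs were chosen after these sequences and the members' changes had been seen, and a match is a description of letters, not of binding. The E-box CACGTG, a palindrome that reads the same on both strands and is recognised by MYC and related factors, occurred in windows of 2 of the 7 matched members, ODC1 and SRM, and in 7.20% of all 34796 windows. For this and the later motifs, members are counted by gene and the background by window. ODC1 and AMD1 have several windows each, so the shares are not like for like. In ODC1 both matches lay around the second listed start, in an intron of 2 of its 4 annotated transcripts and outside the other two. The match in SRM lay 199 bases before its start, outside all listed SRM transcripts. The E-box is in capitals in the 3 runs that follow, each on the minus strand, at chr2:10448025-10448052, chr2:10447991-10448018 and chr1:11060201-11060228.
ODC1 E-box 1: cgggccccgggCACGTGtgcggcgcgcc
ODC1 E-box 2: gcctgcggagaCACGTGgtcgccgagcg
SRM E-box: cggccgggcccCACGTGgcccctggagc

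The TATA box core TATAA, searched on both strands of the 60 bases before each start, was found for 2 of the 7 members, ODC1 and AMD1, and in 6.71% of all windows. These 2 genes are the rate-limiting steps of polyamine synthesis, and their upstream bases are shown with TATAA in capitals, ODC1 on the minus strand at chr2:10448328-10448387 and AMD1 on the plus strand at chr6:110874725-110874784. The letters AGAACA, a sequence shared by androgen response elements, were in the windows of 0 of the 7 members on either strand, and in 14.8% of all windows. That says only that these letters are not within these 300 bases.
ODC1 upstream: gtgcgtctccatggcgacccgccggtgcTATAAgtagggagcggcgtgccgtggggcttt
AMD1 upstream: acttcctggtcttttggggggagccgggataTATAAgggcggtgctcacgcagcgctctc

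Among the members, OAZ1 and ODC1 had the highest RPKM in every library and AZIN1, PAOX and SMOX the lowest 3, in that order. OAZ1 stood at the 99.5 percentile of the genes kept in each library, whereas SMOX was below the median gene throughout. The 5 members in between changed places, and the third place was held by SRM in empty vector, SAT1 in empty vector + AIL, OAZ2 in AR1-651 and AMD1 in AR1-651 + AIL. No spread over samples was at hand to say which neighbours in this order differed.

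**Figure D1:**
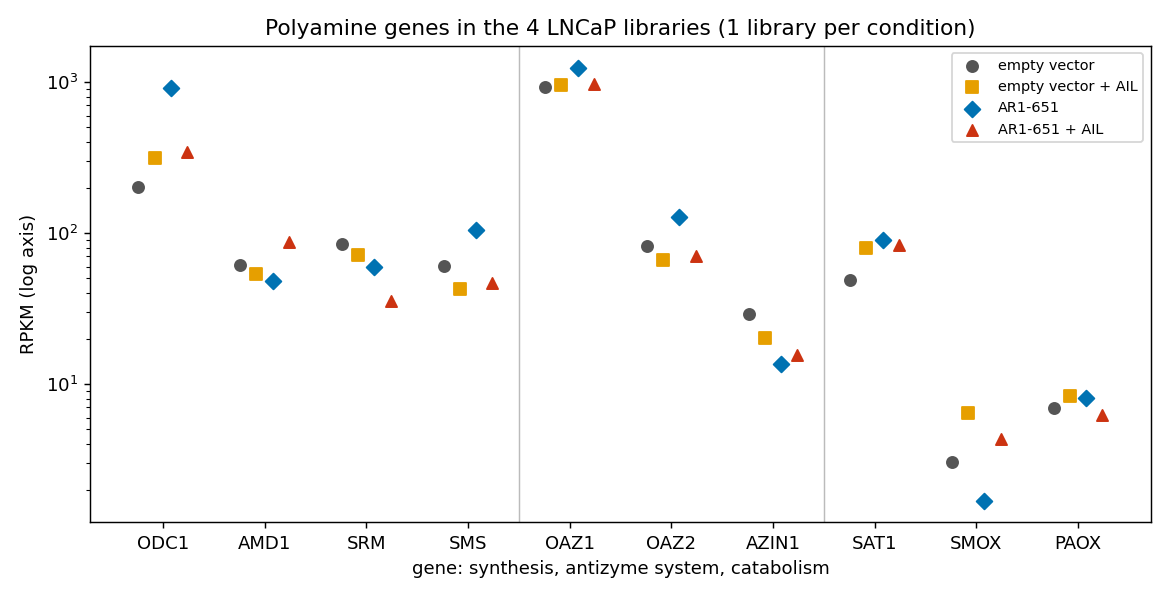
RPKM of each polyamine gene (log axis) in the 4 LNCaP libraries, with 1 point per library and grey lines between the synthesis, antizyme and catabolic genes. ODC1 in the library labelled AR1-651, at 917.04 RPKM, stands apart from its other 3 values of 202.67 to 343.16 RPKM, while OAZ1 stays between 928.58 and 1246.78 RPKM.

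ODC1, which encodes ornithine decarboxylase, the enzyme that makes putrescine from ornithine, had 202.67 RPKM in empty vector, 314.81 in empty vector + AIL, 917.04 in AR1-651 and 343.16 in AR1-651 + AIL. The library labelled AR1-651 was far above the other 3, and empty vector was the lowest. ODC1 rose by 2.17 on the log2 scale with AR1-651, a 4.52-fold higher RPKM, and fell by 1.42 when AIL was added to AR1-651, a 2.67-fold lower RPKM. With AIL in empty vector its change was 0.63, and between the 2 libraries with AIL it was 0.12. Both calls were made in all 9 settings, with changes of 1.81 to 2.47 and of -1.64 to -1.22. The settings were the main one and the alternatives in pseudocount, scaling, filter and trend. The rise and the fall share the library labelled AR1-651, so they are not separate observations. ODC1 holds the small nucleolar RNA gene SNORA80B within its span on the same strand, and reads of the 2 may not have been separated.

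AMD1 makes the decarboxylated S-adenosylmethionine that donates the aminopropyl groups of spermidine and spermine. It had 61.42 RPKM in empty vector, 53.89 in empty vector + AIL, 48.19 in AR1-651 and 86.87 in AR1-651 + AIL. The library with both AR1-651 and AIL was the highest and that with AR1-651 alone the lowest, so its order was unlike that of ODC1. Its changes were -0.34 with AR1-651, -0.19 with AIL in empty vector, 0.84 with AIL in AR1-651 and 0.68 between the libraries with AIL, none of them 2-fold. The 0.84 was 1.03 when each library was rescaled to a common sum. After the trend of the changes with transcript length and GC content was removed, the 0.84 became 0.06 and the 0.68 became 0.28. The AMD1 transcript was the poorest in GC of the 10, and it has 4 named pseudogenes whose reads may be shared with it.

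SRM, spermidine synthase, had 84.07 RPKM in empty vector, 71.52 in empty vector + AIL, 59.73 in AR1-651 and 35.48 in AR1-651 + AIL. Either treatment alone gave a lower value than empty vector, and both together gave the lowest. The change between the 2 libraries with AIL, -0.99, was just short of the 2-fold limit although the RPKM was 2.02-fold lower, and the other 3 changes were -0.49, -0.23 and -0.74 for AR1-651, AIL in empty vector and AIL in AR1-651. The -0.99 was past 2-fold in 3 of 9 settings and became -0.59 without the trend in length and GC content. SRM, whose transcript had the highest GC content of the members at 63.7%, also has 2 named pseudogenes.

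SMS, spermine synthase, catalyses the next step and did not follow SRM. Its RPKM was 60.25 in empty vector, 42.87 in empty vector + AIL, 104.00 in AR1-651 and 46.32 in AR1-651 + AIL. As for ODC1, the library labelled AR1-651 held the highest value and the 2 libraries with AIL were close to each other, but here both lay below empty vector. SMS fell by 1.15 on the log2 scale with AIL in AR1-651, a 2.25-fold lower RPKM, and its other changes were 0.78 with AR1-651, -0.48 with AIL in empty vector and 0.11 between the libraries with AIL. The fall was past 2-fold in 8 of 9 settings and was -0.97 when each library was rescaled to a common sum. The 0.78 was past 2-fold in 2 of 9 settings, with 1.04 under median-ratio scaling and 1.08 after the median of all genes was subtracted.

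OAZ1 encodes antizyme, which binds ODC1 protein and delivers it to the proteasome. Its mRNA is translated through a polyamine-dependent frameshift, a step that mRNA levels do not show. OAZ1 had 928.58 RPKM in empty vector, 960.73 in empty vector + AIL, 1246.78 in AR1-651 and 976.77 in AR1-651 + AIL. It was thus the most abundant member and, with PAOX, the member with the smallest span between its lowest and highest library, 1.34-fold. Its changes were 0.42, 0.05, -0.35 and 0.02 for AR1-651, AIL in empty vector, AIL in AR1-651 and the 2 libraries with AIL, respectively. The 0.05 changed sign in 3 of 9 settings. OAZ1 overlaps JSRP1, on the other strand, by 251 bases, and AC005258.1 on its own strand along nearly its whole span.

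OAZ2, a second antizyme, had 82.64 RPKM in empty vector, 66.67 in empty vector + AIL, 128.45 in AR1-651 and 70.27 in AR1-651 + AIL. It was highest in the library labelled AR1-651, and the 2 libraries with AIL were close to each other and below empty vector, the same order as for SMS. Its changes were 0.63 with AR1-651, -0.31 with AIL in empty vector, -0.86 with AIL in AR1-651 and 0.07 between the libraries with AIL. None was 2-fold, and the -0.86 became -1.08 under median-ratio scaling.

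AZIN1, the antizyme inhibitor, resembles ODC1 in sequence and binds antizyme in its place, which frees ODC1. Its RPKM was 28.96 in empty vector, 20.21 in empty vector + AIL, 13.65 in AR1-651 and 15.63 in AR1-651 + AIL. All 3 treated libraries were below empty vector, and the 2 labelled AR1-651 were the lowest. AZIN1 fell by 1.03 on the log2 scale with AR1-651, a 2.12-fold lower RPKM, while ODC1 rose. The fall was past 2-fold in 6 of 9 settings and was -0.73 after the median of all genes was subtracted, -0.78 under median-ratio scaling and -0.64 without the trend in length and GC content. At 4721 bases its longest transcript was the longest of the members. The changes with AIL were -0.50 in empty vector and 0.18 in AR1-651, and that between the libraries with AIL was -0.35. An antisense gene, AZIN1-AS1, shares part of its span.

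SAT1 acetylates spermidine and spermine and so starts their breakdown and export. It had 48.62 RPKM in empty vector, 79.10 in empty vector + AIL, 89.41 in AR1-651 and 83.76 in AR1-651 + AIL. Empty vector was the low library and the 3 treated libraries lay within a narrow range, a pattern no other member showed. The changes were 0.87 with AR1-651, 0.69 with AIL in empty vector, -0.09 with AIL in AR1-651 and 0.08 between the libraries with AIL. None was 2-fold, although the 0.87 was 1.13 under median-ratio scaling and 1.17 after the median of all genes was subtracted.

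SMOX oxidises spermine directly back to spermidine. It was the lowest member, with 3.06 RPKM in empty vector, 6.38 in empty vector + AIL, 1.69 in AR1-651 and 4.32 in AR1-651 + AIL. Within each vector the library with AIL was above that without it, by 2.08-fold in empty vector and 2.56-fold in AR1-651 in RPKM. On the log2(RPKM + 1) scale these changes were 0.86 and 0.98 and missed the 2-fold limit. With a pseudocount of 0.1 in place of 1 they were 1.04 and 1.30. The values rest on roughly 36, 72, 22 and 57 reads in the same order of libraries. For log2 ratios of reads without a pseudocount, the counting errors are 0.29 with AIL in empty vector and 0.36 in AR1-651. These errors are thus not on the scale of the 0.86 and 0.98. The changes with AR1-651 were -0.59 without AIL and -0.47 with it.

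PAOX oxidises the acetylated polyamines that SAT1 produces. It had 6.90 RPKM in empty vector, 8.30 in empty vector + AIL, 8.04 in AR1-651 and 6.21 in AR1-651 + AIL. Its 4 values differed little, with changes of 0.19, 0.24, -0.33 and -0.37. The counting error of each matching log2 ratio of reads was about 0.24. PAOX shares 861 bases with another annotated gene on its strand. For the other 8 members this counting error was between 0.02 and 0.11. These errors are for ratios of reads without a pseudocount, rest on approximate read numbers and cover counting only.

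Counted over the pathway, 1 of the 10 members rose with AR1-651 against empty vector, ODC1, beside 4.01% of all genes, and 1 fell, AZIN1, beside 11.6%. At a limit of 1.5-fold 4 members were higher (ODC1, SMS, SAT1 and OAZ2; 10.7% of all genes) and 2 lower (AZIN1 and SMOX; 32.3% of all genes). The members' median change was 0.31, with 6 above 0, beside -0.30 for all genes. Of the 14626 genes, 4707 were above 0 and 9800 below it. The split of the calls over all genes, 586 risen and 1701 fallen, depended on the scaling and became 1066 and 817 under median-ratio scaling, 1207 and 573 after the median was subtracted, 325 and 4560 when each library was rescaled to a common sum, and 685 and 528 without the trend in length and GC content. With the rescaling to a common sum the medians were -0.04 for the members and -0.63 for all genes, and ODC1 was at 1.81.

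**Figure D2:**
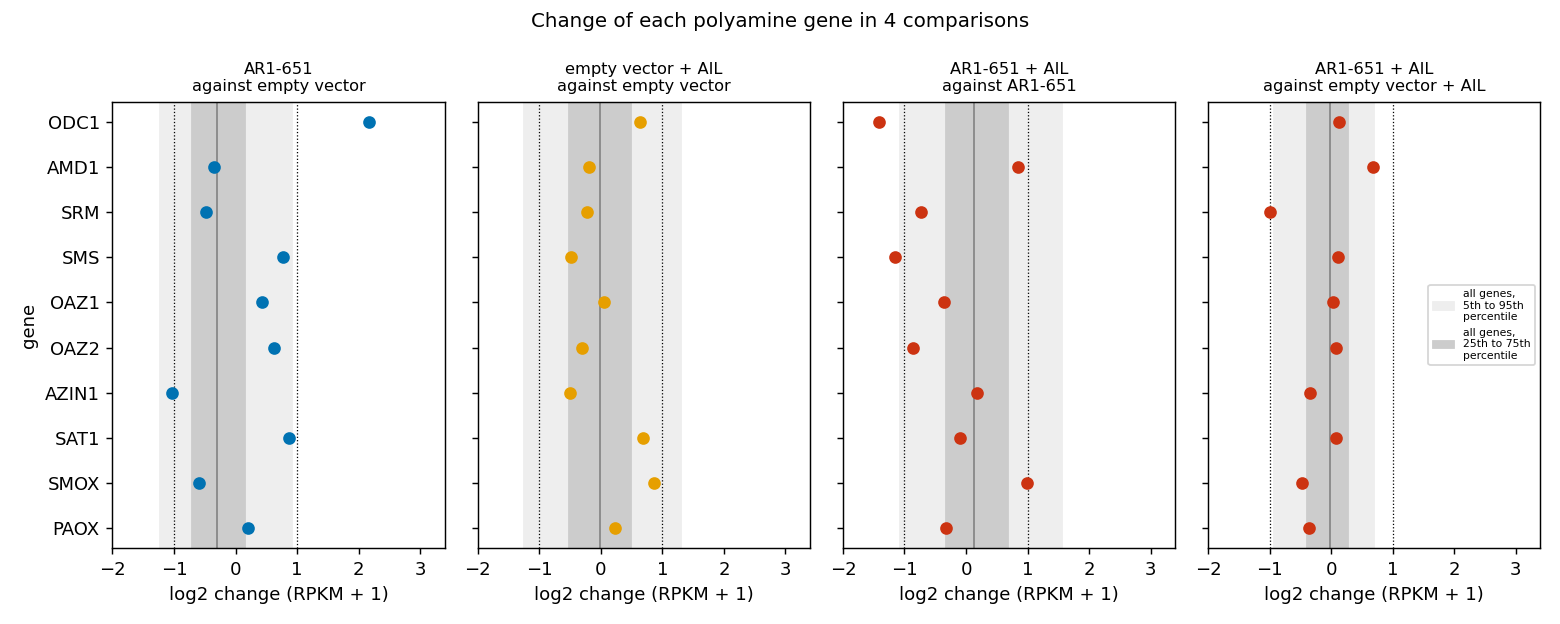
Change of log2(RPKM + 1) of each member in the 4 comparisons named above the panels, with 1 point per gene and no error bars since there was 1 library per condition. Bands show the 5th to 95th and the 25th to 75th percentile of all genes, the grey line their median and dotted lines the 2-fold limit. ODC1 lies past the limit at 2.17 with AR1-651 and at -1.42 with AIL in AR1-651, and no member passes it in the other two panels.

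With AIL in empty vector, 0 of 10 members rose (9.53% of all genes did) and 0 fell (9.03%). At 1.5-fold, ODC1, SAT1 and SMOX were higher, 3 of 10 beside 20.9% of all genes, and 0 were lower beside 22.1%. The median of the members, -0.07, was near that of all genes, -0.02, and 5 members lay on each side of 0. Of the 14626 genes, 7069 lay above 0 and 7452 below it. Rescaling to a common sum turned the calls over all genes from 1394 risen and 1321 fallen to 1434 and 2135.

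With AIL in AR1-651 the direction differed for several of them. No member rose (0 of 10, beside 14.9% of all genes) and 2 fell, ODC1 and SMS, beside 5.74%. At 1.5-fold AMD1 and SMOX were higher (28.6% of all genes were) and 4 were lower, ODC1, SRM, SMS and OAZ2 (14.7%). The median change was -0.34, with 7 members below 0, beside 0.13 for all genes. Of the 14626 genes, 6215 were below 0 and 8223 above it. Over all genes 2184 rose and 839 fell, which became 1582 and 1261 under median-ratio scaling, 1731 and 1084 after the median was subtracted and 1150 and 1046 without the trend in length and GC content, and in the other direction 3269 and 742 when each library was rescaled to a common sum.

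Between the 2 libraries with AIL, 0 members rose (1.46% of all genes) and 0 fell (3.53%). At 1.5-fold AMD1 alone was higher (7.73%) and SRM alone lower (15.5%). The median was 0.05 for the members and -0.03 for all genes. For ODC1, SMS, SAT1, OAZ1 and OAZ2 the change was between 0.02 and 0.12, whereas without AIL the same 5 genes had changes of 0.42 to 2.17 with AR1-651. The change was larger in size with AIL for SRM (-0.99 against -0.49), AMD1 (0.68 against -0.34) and PAOX (-0.37 against 0.19). It was smaller for AZIN1 (-0.35 against -1.03) and SMOX (-0.47 against -0.59). Calls over all genes were also fewer than without AIL, where 4.01% rose and 11.6% fell. The calls over all genes, 214 risen and 517 fallen, became 166 and 190 without the trend in length and GC content, 318 and 1036 when each library was rescaled to a common sum and 433 and 1010 when ribosomal protein genes were left out of that sum.

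The change with AIL in AR1-651 minus that in empty vector was -2.05 for ODC1 and 1.02 for AMD1, the extremes among the members. It was negative for 7 members, with a median of -0.53, beside a median of 0.14 over all genes, of which 5817 were negative and 8809 positive. SAT1 had -0.78, SMS -0.67, OAZ2 and PAOX -0.56 each, SRM -0.51, OAZ1 -0.40, SMOX 0.12 and AZIN1 0.68. In the main setting SMOX, which rests on few reads, was the member whose change with AIL was most alike with either vector. When each library was rescaled to a common sum, the difference was 0.39 for SMOX and -0.12 for OAZ1. The difference is built from all 4 libraries, shares each with another comparison, and was not tested. For AMD1 it was 0.32 and for AZIN1 0.21 without the trend in length and GC content, while for ODC1 it was -2.07.

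**Figure D3:**
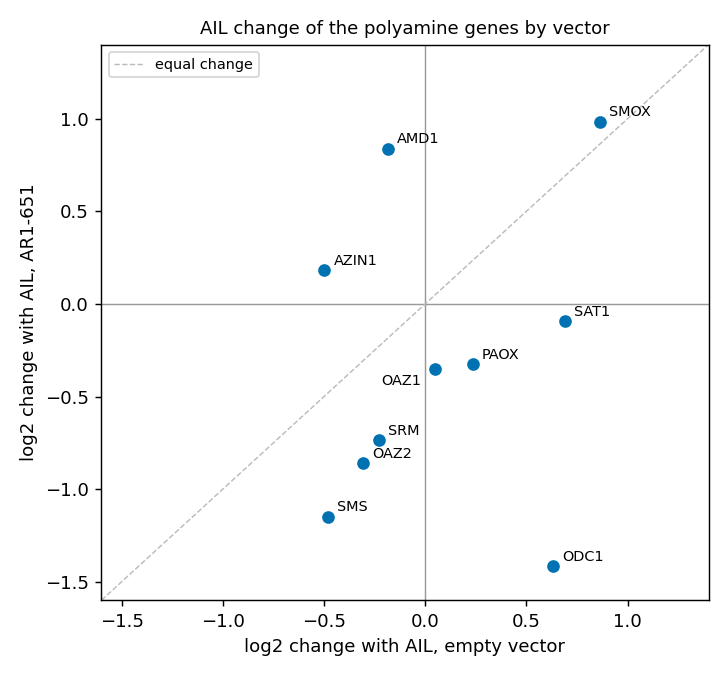
Change of log2(RPKM + 1) with AIL in empty vector (horizontal axis) and in AR1-651 (vertical axis), with 1 point per member and a dashed line of equal change. ODC1 lies farthest from the line, at 0.63 and -1.42, AMD1 lies above it at -0.19 and 0.84, and SMOX lies close to it at 0.86 and 0.98. The counting errors of the matching log2 ratios of SMOX reads, without a pseudocount, are 0.29 and 0.36.

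Ratios within a library do not depend on how the library was scaled, but a trend of the changes with length and GC content can act on the 2 genes of a ratio unequally. ODC1 over OAZ1, the enzyme over its main antizyme, was 0.218 in empty vector, 0.328 in empty vector + AIL, 0.736 in AR1-651 and 0.351 in AR1-651 + AIL. ODC1 over SRM was 2.41, 4.40, 15.4 and 9.67 in the same order. Both ratios were highest in AR1-651 and lowest in empty vector. In AR1-651 + AIL, ODC1 over OAZ1 was close to that in empty vector + AIL, while ODC1 over SRM was farther above it. SRM had its lowest value in that library.

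The balance of the 2 aminopropyl transferases also differed by vector, with SMS over SRM at 0.717 in empty vector, 0.599 in empty vector + AIL, 1.74 in AR1-651 and 1.31 in AR1-651 + AIL. By RPKM, SMS was below SRM in both empty vector libraries and above it in both labelled AR1-651. AMD1 over SRM was 0.731, 0.753 and 0.807 in the first 3 libraries and 2.45 in AR1-651 + AIL, the one library in which AMD1 exceeded SRM. AMD1 had the lowest and SRM the highest GC content of the members. Between the 2 libraries with AIL the difference of their log2 changes was 1.67, and 0.87 without the trend in length and GC content, and with AIL in AR1-651 it was 1.57, and 0.59 without it. For SMS over SRM the difference between the libraries with AIL was 1.10, and 0.56 without the trend. With AR1-651 it was 1.26, and 0.99 without the trend, and with AIL in AR1-651 it was -0.41, and -0.87 without the trend. Counted from empty vector without the trend, SMS was then not above SRM in AR1-651 + AIL. OAZ1 over AZIN1, antizyme over its inhibitor, was 32.1, 47.5, 91.3 and 62.5, lowest in empty vector and highest in AR1-651, but its log2 change with AIL in AR1-651, -0.53, was 0.03 without the trend, so AR1-651 was then not the highest library. SAT1 over SMOX, the acetylating over the oxidising route, was 15.9, 12.4, 52.9 and 19.4, highest in AR1-651. Its 52.9 there divides by SMOX at 1.69 RPKM, which rests on only about 22 reads.

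**Figure D4:**
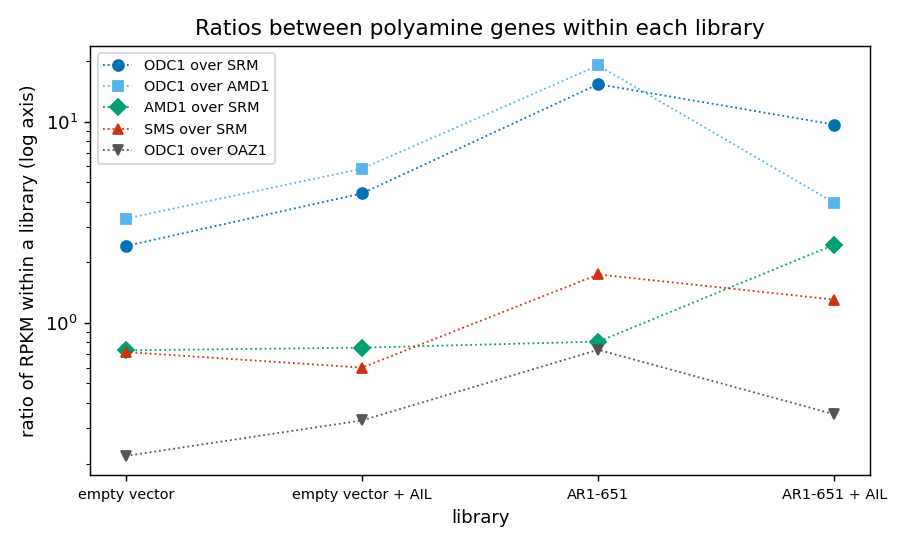
Ratios of RPKM between members within each library (log axis), with 1 point per library and dotted lines only to join the points of a ratio. ODC1 over AMD1 and ODC1 over SRM peak in AR1-651, the latter at 15.4, SMS over SRM is above 1 only in the 2 libraries labelled AR1-651, and AMD1 over SRM is above 1 only in AR1-651 + AIL, at 2.45. These RPKM are not adjusted for GC content, and the log2 change of AMD1 over SRM between the libraries with AIL was 1.67, and 0.87 without that trend. The log2 change of SMS over SRM with AIL in AR1-651 was -0.41, and -0.87 without the trend. Counted from empty vector, SMS was then not above SRM in AR1-651 + AIL.

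The genes whose pattern was most like that of ODC1 were PDIA5, MPC2 and ANKRD37, by the distance between centred log2(RPKM + 1) values over the 4 libraries among 7497 genes. The distances were 0.36, 0.36 and 0.42. PDIA5 had 12.96, 15.36, 50.03 and 22.58 RPKM and MPC2 had 77.33, 84.60, 309.40 and 116.01 RPKM, so both had their highest value in AR1-651. For SAT1 the 2 near genes named here were DCTPP1 and MRPL14, with smaller distances of 0.06 and 0.07. DCTPP1 had 126.77, 209.94, 226.06 and 210.85 RPKM, again low in empty vector and close together in the rest. With 4 points per gene, such likeness describes these libraries only.

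Of 42 neighbouring pathway genes in 5 lists, 41 were in the tables and 34 reached an RPKM of 1 in any library. SLC22A2 was not analysed here. Among the 6 other polyamine enzymes and regulators, 1 rose with AIL in empty vector, beside 9.53% of all genes, and there was no other call. That gene was OAZ3, the antizyme known from the testis, with 21.01 RPKM in empty vector, 63.47 in empty vector + AIL, 39.24 in AR1-651 and 73.13 in AR1-651 + AIL. The values of the genes that follow are in this order. It overlaps the genes MRPL9 by 666 bases and TDRKH by 1228 bases on the other strand, so its reads are uncertain. SAT2, a relative of SAT1, was the most abundant of the list and had 52.46, 83.74, 83.83 and 86.16 RPKM, the same order as SAT1 save for the last 2 libraries, but it lies wholly within the span of SHBG on the other strand. AOC1, a diamine oxidase that breaks down putrescine, had 1.12, 0.25, 0.44 and 0.07 RPKM, values that rest on at most about 15 reads.

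In the supply of ornithine and arginine, 1 of the 8 genes kept fell with AIL in empty vector (9.03% of all genes) and 1 with AIL in AR1-651 (5.74%), in both cases SLC7A1, the cationic amino acid transporter. It had 25.37, 7.27, 13.83 and 3.46 RPKM, with changes of -1.67 and -1.73 on adding AIL, and was lower with AIL in either vector. The mitochondrial ornithine carrier SLC25A15 had 10.48, 5.72, 8.57 and 4.14 RPKM in the same order, with changes of -0.77 and -0.90 that missed the limit. ARG2, which makes ornithine from arginine, had 28.13, 24.84, 46.48 and 25.31 RPKM and was highest in AR1-651. ASS1, the most abundant of the list, stayed between 75.46 and 86.10 RPKM. The list's medians were -0.03 with AR1-651, -0.04 with AIL in empty vector, -0.56 with AIL in AR1-651 and -0.12 between the libraries with AIL, beside -0.30, -0.02, 0.13 and -0.03 for all genes.

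Of the 10 genes kept in the methionine cycle and methylthioadenosine salvage, 2 fell with AIL in empty vector (9.03% of all genes), and 1 rose (14.9%) and 1 fell (5.74%) with AIL in AR1-651. MAT2A, which makes the S-adenosylmethionine that AMD1 uses, had 164.30, 73.73, 137.82 and 78.29 RPKM and fell by 1.15 with AIL in empty vector, with a change of -0.81 in AR1-651. AHCY, which clears S-adenosylhomocysteine, had 120.43, 46.58, 117.24 and 34.74 RPKM and fell by 1.35 and 1.73 with AIL in empty vector and AR1-651. Both genes were low in the 2 libraries with AIL and similar in the 2 without it. MTAP, which recycles the methylthioadenosine released by SRM and SMS, had 4.25, 5.66, 2.64 and 7.20 RPKM and rose by 1.17 with AIL in AR1-651, a change that was 0.62 without the length and GC trend, and a second annotated gene covers nearly its whole span on the same strand. ADI1, a later salvage enzyme, had 110.66, 115.96, 208.84 and 123.91 RPKM and was highest in AR1-651, with a change of 0.91.

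No gene of the hypusine pathway, in which spermidine modifies the translation factor EIF5A, was called in any of the 4 comparisons (0 of 4). Over all genes 1.46% to 14.9% were called in a given direction of a comparison, so 0 of 4 genes is near those shares. EIF5A had 218.10, 189.67, 273.44 and 167.32 RPKM. DHPS, which performs the first step of the modification, stayed between 73.21 and 93.46 RPKM. Another annotated gene covers nearly the whole span of DHPS on the same strand, so its reads are uncertain. DOHH, which performs the second step, had 23.53, 39.99, 19.98 and 27.74 RPKM. DOHH was higher with AIL in either vector without passing 2-fold.

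In polyamine transport 3 of the 6 genes kept fell with AR1-651 against empty vector (11.6% of all genes), 2 fell (9.03%) and 1 rose (9.53%) with AIL in empty vector, and 1 rose with AIL in AR1-651 (14.9%). ATP13A2, the lysosomal polyamine exporter, had 21.54, 9.59, 9.41 and 4.43 RPKM, with changes of -1.11 with AR1-651 and -1.09 with AIL in empty vector. An antisense gene, AL049569.1, shares most of the span of ATP13A2. ATP13A3 had 8.92, 3.58, 3.60 and 7.10 RPKM, with changes of -1.11 for each treatment alone, and SLC12A8 had 13.90, 7.09, 6.11 and 5.09 RPKM and fell by 1.07 with AR1-651. All 3 were highest in empty vector, but none of the 3 falls with AR1-651 was past 2-fold under median-ratio scaling (-0.87, -0.89 and -0.83), after the median was subtracted (-0.81, -0.81 and -0.77) or without the trend in length and GC content (-0.45, -0.42 and -0.79). The 2 falls with AIL in empty vector were -0.91 each without the trend. SLC3A2, a subunit of amino acid transporters linked to polyamine export, had 73.63, 270.68, 65.79 and 210.43 RPKM and rose by 1.86 and 1.66 with AIL in empty vector and AR1-651. The list's median was -0.85 with AR1-651 and -0.84 with AIL in empty vector, 0.24 with AIL in AR1-651 and -0.10 between the libraries with AIL, over 6 genes, beside -0.30, -0.02, 0.13 and -0.03 for all genes. Between the libraries with AIL 0 genes of any of the 5 lists passed 2-fold, beside 1.46% of all genes risen and 3.53% fallen.

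**Figure D5:**
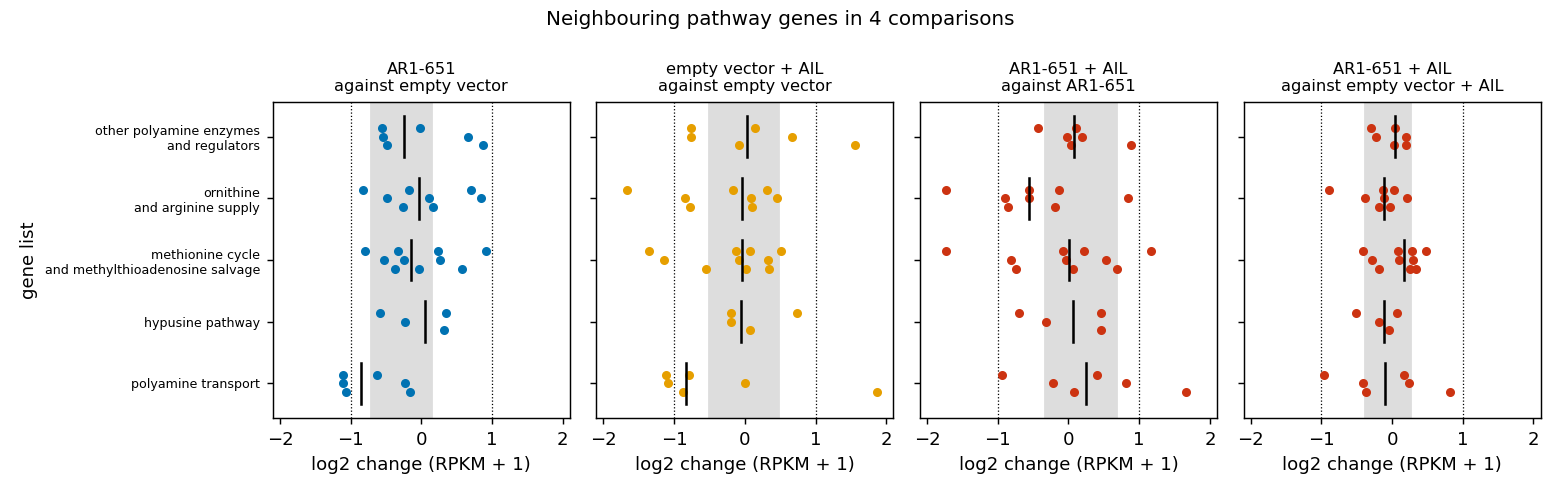
Change of log2(RPKM + 1) of the 34 neighbouring pathway genes kept, by list, in the 4 comparisons named above the panels, with 1 point per gene, a black bar at the list's median, a grey band from the 25th to the 75th percentile of all genes and dotted lines at the 2-fold limit. The transport genes lie lowest with AR1-651, with a median of -0.85, although the 3 past the limit there are within it under median-ratio scaling, after median subtraction and without the length and GC trend. The point farthest right in both panels of AIL against no AIL is SLC3A2, at 1.86 and 1.66.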

How the data were processed

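RNA-seq of LNCaP cells gave 4 libraries, 1 for each condition in the labels. The authors deposited RPKM values with 2 decimals for 19801 genes by Entrez Gene identifier. The submitters' processing notes name BWA 0.7.10-r789 and hg19, while the counting tool and annotation release are not given in the sources used here. The labels' protocol names both an rRNA removal kit and oligo(dT) enrichment. RPKM divides by mapped reads, so values fall where other genes take more of a library.

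Symbols came from RefSeq (19703 matched), and transcript length, GC content and overlaps from GENCODE 29 on GRCh38, used for no hg19 position. Changes are differences of log2(RPKM + 1) over the 14626 genes that reached an RPKM of 1 in any library, called at 2-fold, computed with Python 3.11.15, NumPy 2.4.6 and pandas 2.3.3 and checked on simulated data. With 1 library per condition there was no test.

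Depth was estimated from low genes with 1 transcript, whose values lie at steps of 1 read, 58.7% to 61.6% of them within 0.1 of a whole number. The steps put the libraries at 4840000 to 5680000 reads. Among genes with several transcripts the longest transcript came closest to whole reads (39.3% to 44.0%, against 33.8% to 39.8% for their mean length and 25.1% to 30.1% for the union of exons) and was therefore used. RPKM times that length summed over 18065 genes to 1.105 to 1.163 times what whole reads allow. With the mean length this sum was 0.983 to 1.031, so on this measure the mean came closer. Read numbers of single genes are therefore approximate.

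Named were the 10 members, the androgen-responsive genes of the label check, up to 3 genes nearest in pattern to ODC1 and SAT1, and, from the 5 neighbouring lists, genes past 2-fold, the most abundant and up to 3 of widest range. Some genes of this rule are not reported here. Members and lists were chosen with earlier results of these data known. The alternatives were a pseudocount of 0.1, median-ratio scaling, rescaling to a common sum with or without ribosomal protein genes, no filter, RPKM of at least 5, a 1.5-fold limit and, added after the data were seen, removal of a polynomial of degree 3 in the ranks of length and GC content, and subtraction of the median of all genes.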

Additional observations from a re-analysis of the deposited data

Results flagged for a closer look

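For 6 of the 10 members the change with AIL had opposite signs in the 2 vectors, and the difference was not tested because there was 1 library per condition. The same count was not made over all genes, so this number has no background beside it. The median change of all genes with AIL was -0.02 in empty vector and 0.13 in AR1-651. The change with AIL in AR1-651 minus that in empty vector was -2.05 for ODC1 (0.63 in empty vector and -1.42 in AR1-651), 1.02 for AMD1 (-0.19 and 0.84), -0.78 for SAT1 (0.69 and -0.09), 0.68 for AZIN1 (-0.50 and 0.18), -0.56 for PAOX (0.24 and -0.33) and -0.40 for OAZ1 (0.05 and -0.35). The opposite signs were not fixed for 3 of these genes: over 9 settings the change with AIL in empty vector was negative in 3 for OAZ1, and that in AR1-651 was positive in 1 for SAT1 and negative in 2 for AZIN1. For PAOX each change lay near 0.24, the approximate counting error of its log2 ratio of reads without a pseudocount.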

How the results depend on the processing

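Of 320 alternative values of single members' changes, 301 moved by less than 1.5-fold and kept their side of the 2-fold limit, 19 moved further or crossed it and 0 reversed after having been called. This rule was set for these data, since no replicate spread was at hand. With AR1-651 the count of members risen, 1, became 3 under median-ratio scaling, 3 after the median was subtracted and 4 at 1.5-fold, and the count fallen, 1, became 0, 0 and 2, and 0 without the trend in length and GC content. With AIL in empty vector the 0 risen became 1 with a pseudocount of 0.1 and 3 at 1.5-fold. With AIL in AR1-651 the 0 risen became 1 with a pseudocount of 0.1, 2 after rescaling to a common sum, 1 without ribosomal protein genes, 1 without the trend and 2 at 1.5-fold, and the 2 fallen became 3 under median-ratio scaling, 1 after rescaling to a common sum and 4 at 1.5-fold. Between the libraries with AIL the 0 risen became 1 at 1.5-fold and the 0 fallen became 1 with a pseudocount of 0.1, after rescaling to a common sum, without ribosomal protein genes and at 1.5-fold. The counts over all genes moved with the settings too. With AR1-651 the 586 risen became 1066 under median-ratio scaling and 1207 after the median was subtracted, and the 1701 fallen became 817 and 573. With AIL in AR1-651 the 839 fallen became 1261 under median-ratio scaling and 742 after rescaling to a common sum. The cause of these shifts was not tested. In the neighbouring lists 984 of 1060 single changes moved by less than 1.5-fold and kept their side. No replicate could be left out and no paired analysis was possible because each condition had 1 library. Depth limits SMOX and PAOX most, which rest on about 22 to 83 reads per library.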
